A study of Saccharomyces cerevisiae with 20 samples.

Results

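The 8 genes described here encode the enzymes of heme biosynthesis in Saccharomyces cerevisiae, taken in pathway order as HEM1, HEM2, HEM3, HEM4, HEM12, HEM13, HEM14 and HEM15. They were chosen by gene symbol, and each symbol named 1 probe set (a group of oligonucleotides on the array that measures 1 transcript) of 9335 in the table. All 8 probe sets were among the 6067 tested, and none fell below a signal of 12, the level to which lower signals were raised, on any of the 20 arrays. Every array held RNA from the haploid laboratory strain CEN.PK113-7D (MATa MAL2-8C SUC2), grown in bioreactors at 30 °C and pH 5.0 with glucose (20 g/L) in a synthetic medium. Aerobic cultures were sparged with air and sampled in 6 conditions, the exponential phase (ExP), late ExP, the diauxic shift at which glucose runs out, the post-diauxic phase of growth on ethanol, early stationary phase (SP) and late SP. Anaerobic cultures were sparged with nitrogen and sampled in 4 conditions, ExP, the end of ExP, early SP and late SP. Only the anaerobic medium was supplemented, with Tween 80 at 420 mg/L and ergosterol at 10 mg/L from an ethanol stock, so a difference between atmospheres cannot be told apart from a difference in these supplements. Each atmosphere had 2 independent cultures, called culture 1 and culture 2 and followed over time, with 1 array per culture and condition.

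Heme is an iron-containing ring that cytochromes, catalases and sterol-forming enzymes carry as a cofactor. Its synthesis starts in the mitochondrion with 5-aminolevulinate (ALA) synthase, passes through the cytosol, and ends in the mitochondrion, where ferrochelatase inserts iron. Coproporphyrinogen oxidase (HEM13) and protoporphyrinogen oxidase (HEM14), the steps before the last, consume molecular oxygen. In yeast, heme is also a signal of oxygen, read by the transcription factor Hap1, which activates the repressor gene ROX1, and HEM13 is a textbook target of Rox1.

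The arrays had a median signal of 44.1 to 69.4, 1823 to 2822 features below 12, a 3' to 5' signal ratio of the actin gene ACT1 of 1.20 to 2.68, and a correlation of 0.974 to 0.995 between the log2 signals of the cultures of a condition. Signals were scaled by the authors to the same average on every array, so a difference is relative to the other transcripts of that array and says nothing of the RNA content per cell. A probe set was called when limma gave a Benjamini-Hochberg adjusted p below 0.05 over all 6067 probe sets and the fold was at least 2. Log2 differences in atmosphere are aerobic minus anaerobic throughout, and those within a course are the later minus the earlier condition.

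Across the 10 conditions the genes differed in how far their transcripts moved. The condition means of HEM13 spanned 47.7-fold, a range reached by 3.1% of the tested probe sets. Those of HEM15 spanned 6.85-fold, HEM14 6.09-fold and HEM3 5.88-fold. HEM12 spanned 3.57-fold, HEM2 3.42-fold, HEM4 2.17-fold and HEM1 2.13-fold. On the log2 scale HEM1 and HEM4 moved by 1.09 and 1.12, less than the median of 1.89 over all tested probe sets.

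**Figure D1:**
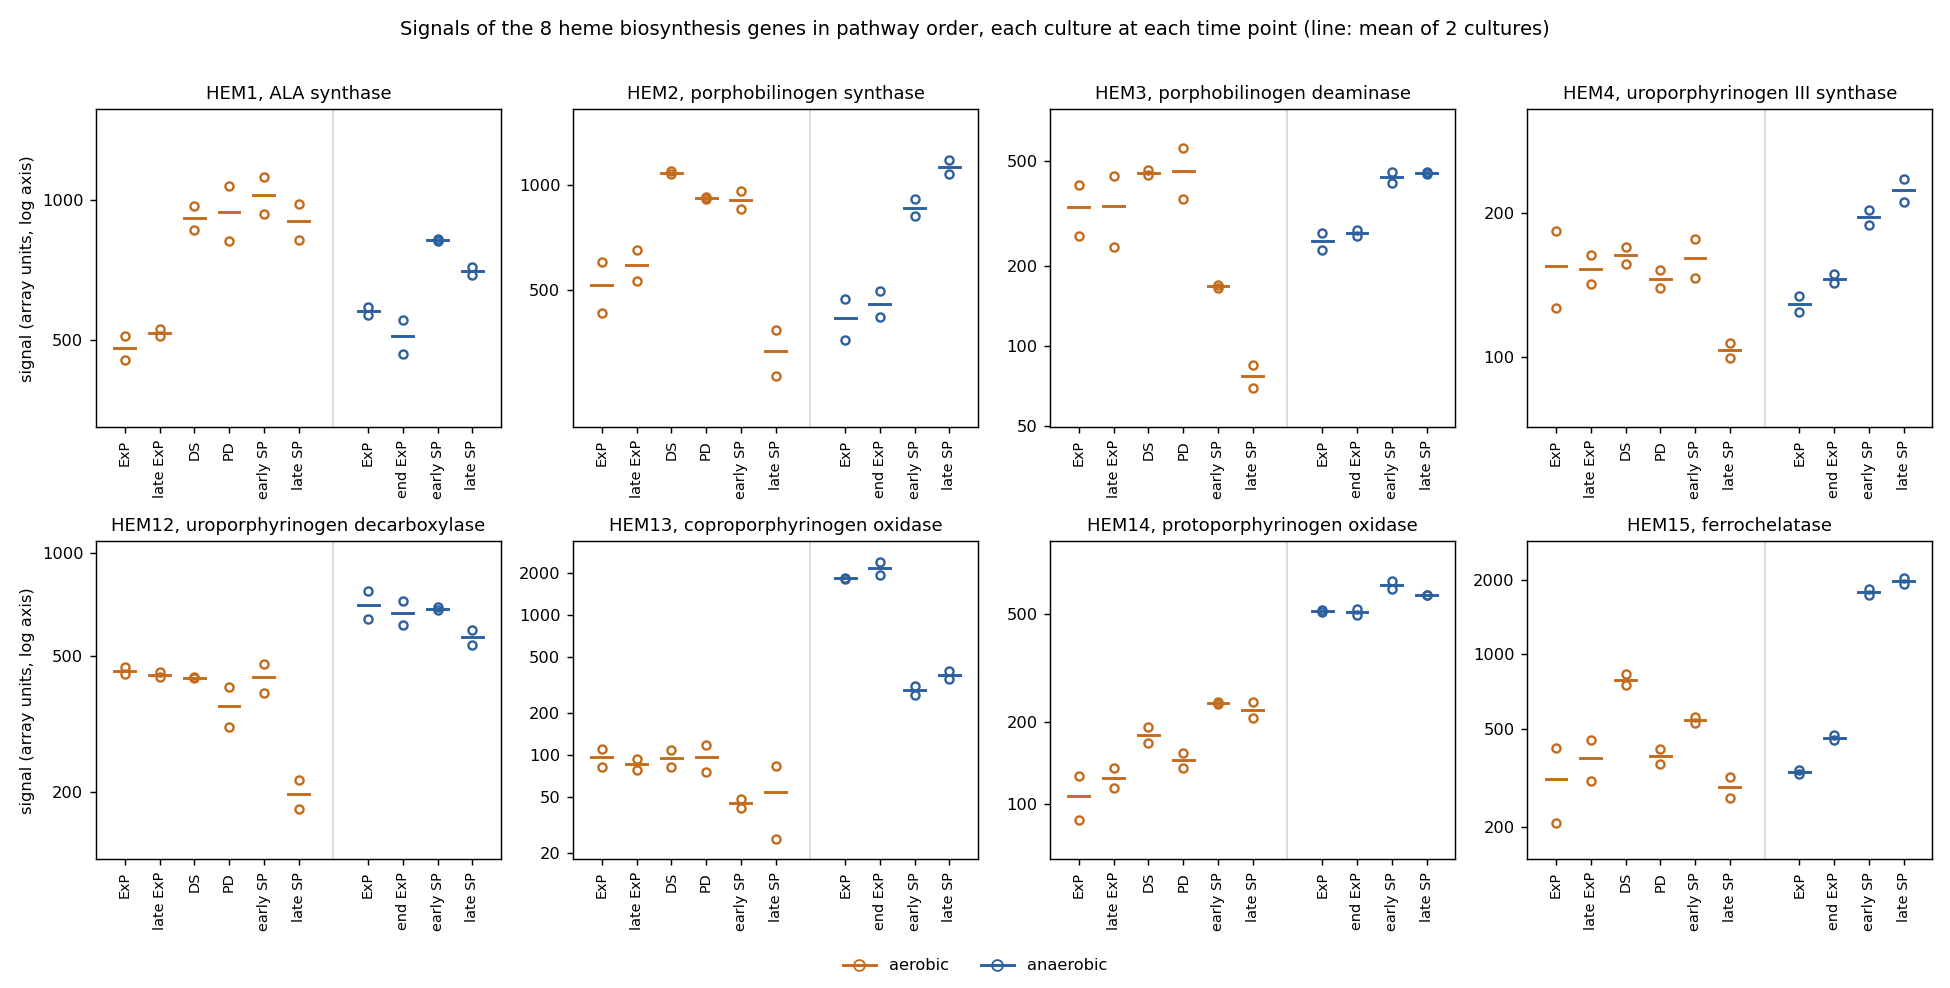
Array signal (log axis) of each of the 8 genes in the 6 aerobic conditions, at the left of each panel, and the 4 anaerobic conditions, at the right. Each circle is 1 culture and each line the mean of 2 cultures. For HEM12, HEM13 and HEM14 every anaerobic array lies above every aerobic one, with HEM13 at 267.6 or more under nitrogen and at 117.0 or less in air.

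HEM13, HEM14 and HEM12 were the 3 genes whose signals separated the atmospheres completely. In each of them the lowest of the 8 anaerobic arrays was above the highest of the 12 aerobic arrays, a pattern shown by 1.4% of the tested probe sets. HEM13 ranged from 25.2 to 117.0 in aerobic cultures (median 82.1) and from 267.6 to 2387.9 in anaerobic cultures (median 1099.5). HEM14 ranged from 87.2 to 236.3 in aerobic cultures (median 160.0) and from 494.4 to 661.1 in anaerobic cultures (median 553.95). HEM12, uroporphyrinogen decarboxylase, needs no oxygen. Its range was 178.1 to 475.1 in aerobic cultures (median 431.65) and 537.3 to 772.6 in anaerobic cultures (median 660.25). The remaining 5 genes overlapped between atmospheres.

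In ExP, during growth on glucose, HEM13 and HEM14 were lower in aerobic than in anaerobic cultures. In ExP 2 of the 8 genes were called, both lower in aerobic cultures, beside 7.96% of all tested probe sets called and 2.88% called lower. HEM13 had 82.1 and 110.8 in aerobic ExP, against 1804.4 and 1838.8 in anaerobic ExP. The aerobic signals lay far below the anaerobic ones, with a log2 difference of -4.26 ± 0.39 (SE, 19.1-fold, limma adjusted p = 1.71e-06), the 13th lowest of 6067 probe sets. HEM14 had 126.4 and 87.2 in aerobic ExP, against 510.7 and 517.5 in anaerobic ExP. Its log2 difference was -2.29 ± 0.18 (4.90-fold, limma adjusted p = 2.51e-07). With the spread taken from these 4 arrays alone, neither was called (limma adjusted p = 0.0556 for HEM13 and 0.103 for HEM14).

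The same genes were called in the following samples of the glucose phase, aerobic late ExP against the end of anaerobic ExP, beside 9.05% of all probe sets and 3% called lower. HEM13 had 78.2 and 94.3 in aerobic cultures, against 2387.9 and 1936.3 in anaerobic cultures. This was its largest difference of the 5 comparisons between atmospheres, at -4.65 ± 0.39 (25.0-fold, limma adjusted p = 4.23e-07). HEM14 had 113.8 and 134.7 in aerobic cultures, against 522.4 and 494.4 in anaerobic cultures, a log2 difference of -2.04 ± 0.18 (limma adjusted p = 6.78e-07).

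HEM12, the step just before HEM13, passed the adjusted p but not the fold threshold during growth. It had 442.0 and 464.9 in aerobic ExP and 772.6 and 640.3 in anaerobic ExP, a log2 difference of -0.63 ± 0.18 (limma adjusted p = 0.0291). In late ExP and the end of ExP the difference was -0.60 (limma adjusted p = 0.0364). The groups did not overlap in either comparison, which is a weak sign with 2 arrays on each side. HEM2 did not overlap in late ExP and the end of ExP either, at a limma adjusted p of 0.314.

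The other 5 genes were not called during growth on glucose. In ExP their log2 differences were -0.27 for HEM1, 0.31 for HEM2, 0.39 for HEM3, 0.24 for HEM4 and -0.18 for HEM15, with standard errors of 0.17 to 0.27. In late ExP and the end of ExP they were 0.03 for HEM1, 0.37 for HEM2, 0.27 for HEM3, 0.06 for HEM4 and -0.30 for HEM15. For most of these genes the cultures of the 2 atmospheres overlapped in ExP, and the exception was HEM1, with 508.4 and 452.7 in aerobic ExP and 588.4 and 564.8 in anaerobic ExP. The aerobic cultures themselves differed here. HEM15 had 418.6 in culture 1 and 207.6 in culture 2 of aerobic ExP, but 307.8 in culture 1 and 451.2 in culture 2 of aerobic late ExP. HEM3 showed the same crossing, with 407.1 and 261.7 in aerobic ExP and 237.1 and 437.7 in aerobic late ExP. The crossing also occurred outside the pathway. The regulator gene HAP4 had 742.8 and 219.4 in aerobic ExP and 383.2 and 997.9 in aerobic late ExP. The heme oxygenase gene HMX1 did not cross, with 452.3 and 514.5, then 419.6 and 495.9. The cause was not tested.

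**Figure D2:**
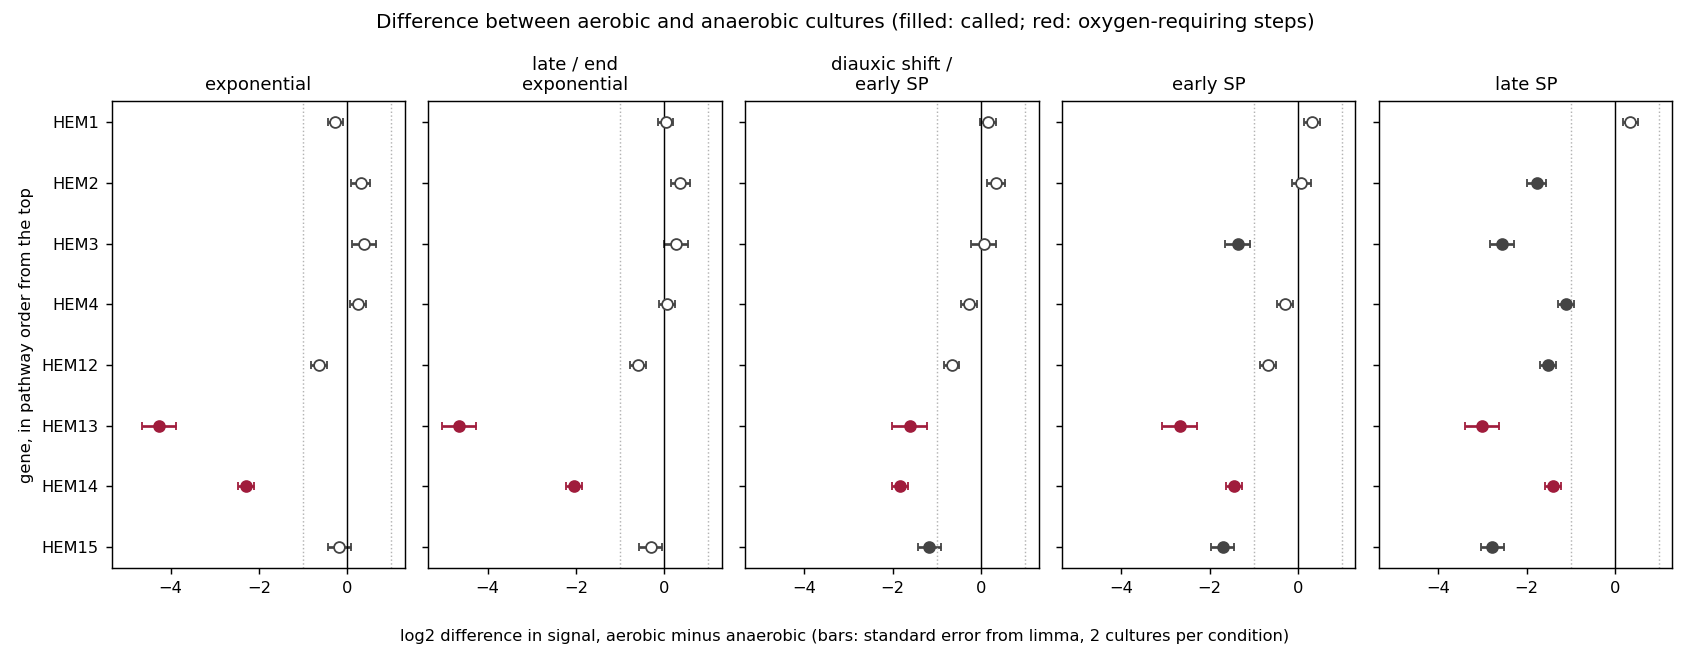
Log2 difference in signal, aerobic minus anaerobic, of the 8 genes in pathway order from the top, in 5 comparisons of 2 against 2 cultures. Bars are limma standard errors, filled points were called, red points are HEM13 and HEM14, and dotted lines mark a fold of 2. The number of filled points is 2, 2, 3, 4 and 7 from left to right, all of them below 0.

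After glucose exhaustion more steps of the pathway differed. The aerobic diauxic shift was set against anaerobic early SP, since glucose had just run out in both. Here 3 genes were called lower in aerobic cultures, beside 22.4% of all probe sets called and 6.56% called lower. HEM15, ferrochelatase, joined the oxygen-requiring steps, with 827.2 and 747.3 at the aerobic diauxic shift and 1726.4 and 1825.4 in anaerobic early SP (log2 difference -1.17 ± 0.26, limma adjusted p = 0.00203). HEM13 had 82.1 and 108.4 at the diauxic shift and 313.3 and 267.6 in anaerobic early SP (-1.62 ± 0.39, limma adjusted p = 0.00389). HEM14 had 191.1 and 166.9 at the diauxic shift and 618.2 and 661.1 in anaerobic early SP (-1.84 ± 0.18, limma adjusted p = 1.55e-06). HEM12 again passed only the adjusted p (-0.67, limma adjusted p = 0.00735). The calls of HEM13 and HEM15 rested on the full set of arrays, since without anaerobic culture 2 at all time points the limma adjusted p was 0.0582 for HEM13 and 0.0594 for HEM15, and without anaerobic culture 1 it was 0.0895 for HEM13.

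In early SP 4 genes were called lower in aerobic cultures, beside 25.1% of all probe sets called and 9.02% called lower. HEM3, porphobilinogen deaminase, had 170.9 and 165.3 in aerobic early SP, against 413.6 and 455.2 in anaerobic early SP (-1.37 ± 0.27, limma adjusted p = 0.000923). HEM15 had 558.2 and 529.2 in aerobic early SP, against 1726.4 and 1825.4 in anaerobic early SP (-1.71 ± 0.26, limma adjusted p = 8.1e-05). Both genes had narrow culture pairs and did not overlap between atmospheres. The lack of overlap does not set them apart, since HEM2 was the only gene of the pathway that overlapped here. HEM1 and HEM4 did not overlap either and were not called (limma adjusted p = 0.152 and 0.211). HEM13 had 41.8 and 48.7 in aerobic early SP, against 313.3 and 267.6 in anaerobic early SP (-2.68 ± 0.39, limma adjusted p = 5.76e-05). HEM14 had 236.1 and 233.1 in aerobic early SP, against 618.2 and 661.1 in anaerobic early SP (-1.45 ± 0.18, limma adjusted p = 1.2e-05). HEM12 was at -0.68 (limma adjusted p = 0.00624), under the fold threshold, and HEM1, HEM2 and HEM4 were at 0.32, 0.07 and -0.29 without passing the test.

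In late SP every step but the first was lower in aerobic cultures. That is 7 of the 8 genes, beside 31.1% of all probe sets called and 12.8% called lower, and their log2 differences had a median of -1.65 over the 8 genes against 0.08 over all probe sets tested. HEM2, the cytosolic enzyme that condenses ALA into porphobilinogen, had 281.7 and 383.5 in aerobic late SP, against 1179.7 and 1073.2 in anaerobic late SP. HEM3 had 69.2 and 85.2 in aerobic late SP, against 453.5 and 447.7 in anaerobic late SP. HEM15 had 263.0 and 318.0 in aerobic late SP, against 1926.6 and 2035.0 in anaerobic late SP. In all 3 genes the groups lay far apart, and limma adjusted p was 6.29e-06, 2.6e-06 and 5.34e-07 in that order.

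HEM4, uroporphyrinogen III synthase, had 99.6 and 106.6 in aerobic late SP and 211.3 and 235.9 in anaerobic late SP (-1.12 ± 0.18, limma adjusted p = 0.000122). HEM12 had 178.1 and 217.6 in aerobic late SP and 597.0 and 537.3 in anaerobic late SP (-1.52 ± 0.18, limma adjusted p = 6.03e-06), and here it passed the fold threshold. HEM13 was the least repeatable of the genes in this condition. Its aerobic late SP cultures gave 25.2 and 83.3 and its anaerobic ones 349.1 and 394.6, so the log2 difference of -3.02 ± 0.39 was -2.16 without the lower aerobic culture and -3.88 without the higher one, and it was called each time. HEM14 had 236.3 and 206.2 in aerobic late SP and 587.9 and 585.5 in anaerobic late SP (-1.41 ± 0.18, limma adjusted p = 1.22e-05).

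HEM1, ALA synthase, was the exception in late SP. It had 980.2 and 818.5 in aerobic late SP, against 716.2 and 690.7 in anaerobic late SP. The aerobic cultures were the higher ones, without overlap, but the log2 difference of 0.35 ± 0.17 did not pass the test (limma adjusted p = 0.104).

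The late SP samples also differed in a sign of RNA integrity. The ratio of the 3' to the 5' control probe set of the actin gene ACT1 was 2.68 and 2.10 in aerobic late SP, against 1.64 and 1.62 in anaerobic late SP. For SPT15 it was 5.20 and 6.81 in aerobic late SP and 4.35 and 4.68 in anaerobic late SP. For SRB4 it was 2.85 and 3.70 in aerobic late SP and 3.40 and 3.67 in anaerobic late SP. The SRB4 ratio cannot be read, since its 5' control was at 3.1 to 11 on the arrays, below 12 throughout. The part of the ACT1 and SPT15 differences in the late SP results was not tested.

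The change of the atmosphere effect over the cultivation was tested directly, as the late SP difference minus the ExP difference. HEM2, HEM3, HEM4 and HEM15 were called, all 4 towards lower aerobic signals, beside 33.3% of all probe sets called and 14.2% called in that direction. The log2 change was -2.08 ± 0.30 for HEM2, -2.94 ± 0.39 for HEM3, -1.36 ± 0.26 for HEM4 and -2.59 ± 0.36 for HEM15, with limma adjusted p of 6.8e-05, 3.61e-05, 0.00071 and 6.16e-05. The values of the oxygen-requiring steps had the opposite sign, as had that of HEM1. HEM14 was at 0.88 (limma adjusted p = 0.0117), under the fold threshold. HEM13 was at 1.24 (limma adjusted p = 0.0845, or 0.0301 with culture as a replicate block), and its size rested on the aerobic late SP cultures, at 2.10 and called without culture 1 and at 0.37 without culture 2 (limma adjusted p = 0.442). HEM12 was at -0.89 (limma adjusted p = 0.0112), and HEM1 at 0.61 without passing the test.

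Within the aerobic course, none of the 8 genes was called between ExP and late ExP, where limma called 0% of all probe sets (198 had an unadjusted p below 0.05). At the diauxic shift HEM15 rose, with 827.2 and 747.3 at the diauxic shift against 307.8 and 451.2 in late ExP (log2 difference 1.08 ± 0.26, limma adjusted p = 0.00259), beside 32.1% of all probe sets called. Leaving out aerobic late ExP culture 1 gave HEM15 0.80, under the fold threshold. HEM1 had 970.9 and 863.4 at the diauxic shift and 508.3 and 527.1 in late ExP (0.82, limma adjusted p = 0.00103), and HEM2 had 1096.4 and 1077.1 at the diauxic shift and 530.1 and 650.4 in late ExP (0.89, limma adjusted p = 0.00233). These, and HEM14 at 0.53 (limma adjusted p = 0.0214), passed the adjusted p without reaching a fold of 2.

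In the post-diauxic phase HEM15 fell again, to 413.0 and 360.1, by 1.03 on the log2 scale relative to the diauxic shift (limma adjusted p = 0.0107), beside 11% of all probe sets called. The value lay close to both thresholds, and without diauxic shift culture 1 the limma adjusted p was 0.0946 and without post-diauxic culture 2 it was 0.072. At entry into aerobic SP, HEM3 fell to 170.9 and 165.3 in early SP, against 559.9 and 360.8 in the post-diauxic phase (-1.42 ± 0.27, limma adjusted p = 0.000996). HEM13 was also called there, with 41.8 and 48.7 in early SP and 76.0 and 117.0 in the post-diauxic phase, but at a limma adjusted p of 0.0459 that did not hold in 18 of the 24 fits without an array or a culture. Probe sets called at this step were 18.3% of all. HEM14 had 236.1 and 233.1 in early SP and 153.1 and 135.4 in the post-diauxic phase (0.70, limma adjusted p = 0.00649), in the opposite direction.

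Between early and late aerobic SP, 3 genes fell, all of them early or middle steps, beside 24.4% of all probe sets called and 16.4% called lower. HEM2 had 281.7 and 383.5 in late SP, against 853.1 and 959.5 in early SP (-1.46 ± 0.21, limma adjusted p = 7.16e-05). The 3' to 5' ratio of the ACT1 control was 2.68 and 2.10 in late SP and 1.77 and 1.87 in early SP. That of SPT15 was 5.20 and 6.81 in late SP and 3.48 and 3.67 in early SP. That of SRB4 was 2.85 and 3.70 in late SP and 4.29 and 6.20 in early SP, but it rests on a 5' signal below 12. The part of the ACT1 and SPT15 differences in this change was not tested. HEM3 was at -1.13 ± 0.27 (limma adjusted p = 0.00357) and HEM12 at -1.13 ± 0.18 (limma adjusted p = 0.000155). Without aerobic late SP culture 1 both were just under a fold of 2, at -0.98 for HEM3 and -0.99 for HEM12, and HEM12 was at -0.99 without aerobic early SP culture 2 too. HEM4 (-0.64) and HEM15 (-0.91) passed the adjusted p only, and HEM1, HEM13 and HEM14 did not pass it, at -0.19, 0.02 and -0.09.

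Over the whole aerobic course, late SP against ExP, 51.1% of all probe sets were called and 4 of the 8 genes. HEM3 (-2.09, limma adjusted p = 6.75e-06) and HEM12 (-1.20, limma adjusted p = 2.33e-05) fell, and HEM14 rose (1.07, limma adjusted p = 7.04e-05), with 236.3 and 206.2 in late SP and 126.4 and 87.2 in ExP. HEM14 had 0.80 without aerobic ExP culture 2 and 0.97 without aerobic late SP culture 1, both under the fold threshold. HEM13 was called lower (-1.06, limma adjusted p = 0.0243) although its groups overlapped, with 25.2 and 83.3 in late SP and 82.1 and 110.8 in ExP, and the value was -0.20 without aerobic late SP culture 1 and -0.84 without aerobic ExP culture 2, called in neither. HEM1 was at 0.90 (limma adjusted p = 0.000278), HEM2 at -0.63 and HEM4 at -0.56, short of a fold of 2.

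The anaerobic course had a single step. Between ExP and the end of ExP 0.478% of all probe sets were called, and between early and late SP 0.412%, with none of the 8 genes in either. Between the end of ExP and early SP 47.7% of all probe sets were called, and HEM13 and HEM15 moved in opposite directions. HEM13 fell to 313.3 and 267.6 in early SP, against 2387.9 and 1936.3 at the end of ExP (-2.89 ± 0.39, 7.43-fold, limma adjusted p = 1.06e-05). HEM15 rose to 1726.4 and 1825.4 in early SP, against 469.5 and 448.4 at the end of ExP (1.95 ± 0.26, 3.87-fold, limma adjusted p = 8.7e-06). HEM14, the step between them, had 618.2 and 661.1 in early SP and 522.4 and 494.4 at the end of ExP (0.33, limma adjusted p = 0.113).

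The 4 first steps passed the adjusted p at anaerobic glucose exhaustion without reaching a fold of 2, at 0.70 for HEM1, 0.92 for HEM2, 0.70 for HEM3 and 0.43 for HEM4 (limma adjusted p = 0.00228, 0.00114, 0.0351 and 0.0466). At this step 47.7% of all probe sets passed both thresholds, so the share passing the adjusted p alone is at least as large. HEM12 stayed within its spread, at 0.05 ± 0.18. Against ExP, anaerobic late SP had HEM2 and HEM15 called higher (1.46 and 2.57, limma adjusted p = 1.66e-05 and 4.49e-07) and HEM13 called lower (-2.30, limma adjusted p = 8.26e-05), beside 51.9% of all probe sets called.

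2 comparisons of the courses themselves were added after the data were seen. The change at glucose exhaustion, aerobic minus anaerobic, was called for HEM13 alone of the 8 genes (3.03 ± 0.55, limma adjusted p = 0.00146), beside 19.2% of all probe sets. The aerobic change of HEM13 was 0.14 and the anaerobic change -2.89. For HEM15 the aerobic change was 1.08 and the anaerobic change 1.95, a difference of -0.87 ± 0.36 that did not pass the test (limma adjusted p = 0.0931). Without either anaerobic culture at all time points HEM13 was at 2.99 and 3.07 with a limma adjusted p of 0.0631 and 0.0583.

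The change between early and late SP, aerobic minus anaerobic, was called for HEM2 (-1.85 ± 0.30, limma adjusted p = 0.00063), HEM3 (-1.18 ± 0.39, limma adjusted p = 0.0366) and HEM15 (-1.07 ± 0.36, limma adjusted p = 0.0431), beside 19.3% of all probe sets. With culture as a replicate block only HEM2 was called, and the limma adjusted p was 0.0517 for HEM3 and 0.0578 for HEM15. Of the 24 fits without an array or a culture, HEM3 lost its call in 9 and HEM15 in 18. HEM4 (-0.83) and HEM12 (-0.85) passed the adjusted p under the fold threshold.

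The oxygen-requiring steps were set against the other 6 genes on each array, after each gene was centred on its own mean over the 20 arrays. This is a description, with no test, and only the shift between conditions has a meaning, since the centring sets the zero. HEM13 relative to the other 6 was at -0.71, -0.96, -1.39, -1.10, -2.10 and -1.17 in the 6 aerobic conditions in order of time, and at 3.52, 3.66, -0.03 and 0.28 in the 4 anaerobic conditions. On this scale HEM13 was more than 3 log2 units lower in anaerobic SP than in anaerobic growth. HEM14 relative to the other 6 was at -1.05, -0.91, -0.94, -0.97, -0.20 and 0.63 in the aerobic conditions and at 1.22, 1.10, 0.64 and 0.47 in the anaerobic conditions. In late SP the aerobic and anaerobic cultures of HEM14 overlapped on this relative scale. Between aerobic early and late SP the signal of HEM14 itself did not rise (means 234.6 and 221.2). The other 6 genes were lower in aerobic late SP than in early SP, with log2 differences from -1.46 to -0.19.

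**Figure D3:**
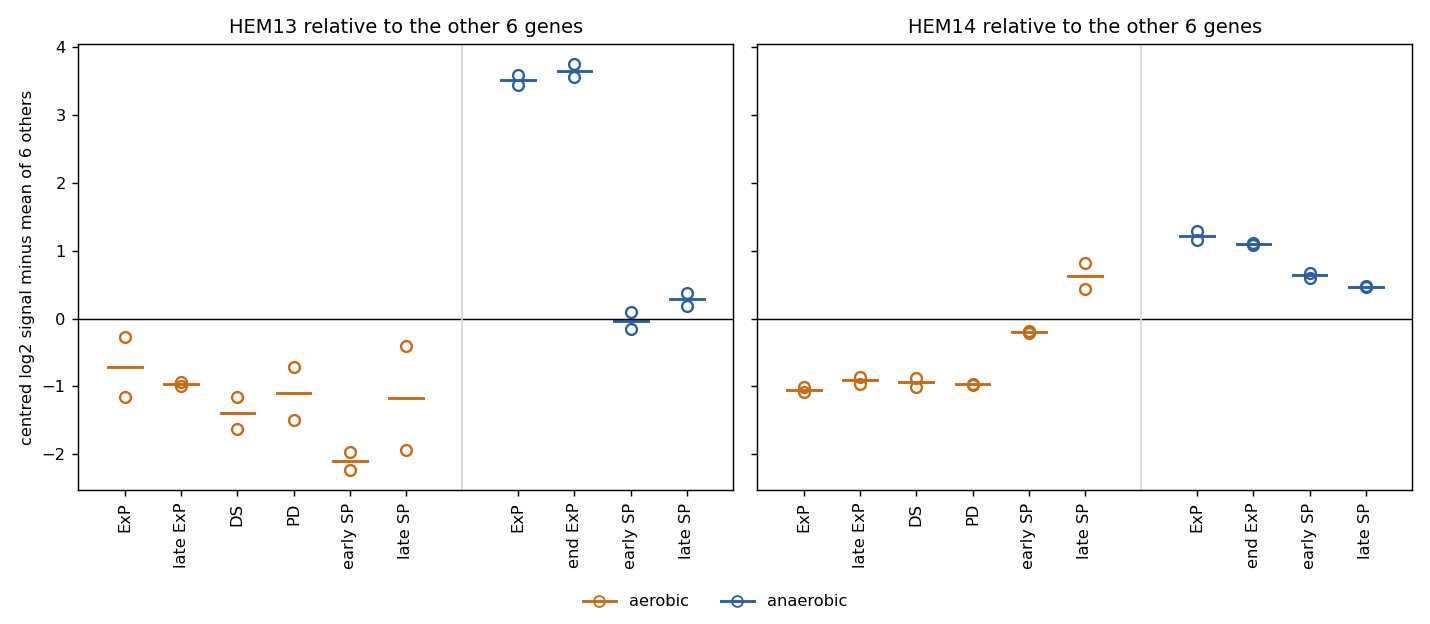
Centred log2 signal of HEM13 (left) and HEM14 (right) minus the mean of the other 6 genes, in the 6 aerobic and then the 4 anaerobic conditions. Circles are cultures and lines means of 2 cultures. The zero is set by the centring. HEM13 is at 3.52 and 3.66 in anaerobic growth and at -0.03 and 0.28 in anaerobic SP. The aerobic HEM14 value goes from -0.20 in early SP to 0.63 in late SP. The signal of HEM14 itself does not rise at that step, and the other 6 genes are lower in late SP.

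The order of the conditions differed from gene to gene. HEM13 was highest at the end of anaerobic ExP (mean 2162), then in anaerobic ExP (1822), late SP (371.8) and early SP (290.5), with no overlap between neighbours, and its 6 aerobic conditions followed with every pair of neighbours overlapping. HEM14 was highest in anaerobic early SP (639.7), and its aerobic conditions began with early SP (234.6) and ended with ExP (106.8). HEM15 was highest in anaerobic late SP (1981) and early SP (1776), then at the aerobic diauxic shift (787.2), and its lowest conditions, from the aerobic post-diauxic phase (386.6) to aerobic late SP (290.5), overlapped from neighbour to neighbour. HEM1 was highest in the 4 aerobic conditions after glucose exhaustion, from aerobic early SP (1027) to aerobic late SP (899.4), which overlapped one another, and lowest in aerobic ExP (480.6).

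Across the 10 condition means the pairs most alike were HEM4 and HEM15 (Pearson's r = 0.869), HEM2 and HEM4 (0.806), HEM12 and HEM13 (0.771), HEM3 and HEM4 (0.747) and HEM13 and HEM14 (0.729). The pair most opposed was HEM1 and HEM13 (-0.528). Conditions of a course share cultures, so these values are descriptions. No gene of the pathway was among the 5 probe sets most like another gene of it.

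Outside the pathway, the 5 probe sets most like HEM13 over the 10 condition means were HES1 (an oxysterol-binding protein, r = 0.974), ARE1 (a sterol acyltransferase, 0.971), PMT5 (a protein O-mannosyltransferase, 0.971), the uncharacterised YCR102C (0.966) and AAC3 (an ADP/ATP carrier of anaerobic mitochondria, 0.965). Most like HEM14 was a probe set shared by the genes YHL009W-B and YJL113W (0.990). Then came the seripauperins PAU3 (0.975), PAU16 (0.972) and PAU19 (0.969), and the cell wall protein TIR4 (0.968). The seripauperins are nearly identical in sequence, and their probe sets may detect one another.

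Beside the 8 steps, 13 genes that handle heme or its precursors were counted. In aerobic ExP 5 of them were called higher and 0 lower (median log2 difference 0.58, against 0 over all probe sets), beside 5.08% of all probe sets called higher and 2.88% called lower. In aerobic late SP 2 were called higher and 4 lower (median -0.36, against 0.08), beside 18.2% of all probe sets called higher and 12.8% called lower. The change from ExP to late SP was called lower for 7 of the 13 genes and higher for 1. Of all probe sets, 14.2% were called lower and 19.1% higher. The median change was -1.04 over the 13 genes, against -1.12 over the 8 steps and 0.15 over all probe sets. HMX1, heme oxygenase, which degrades heme, ranged from 419.6 to 3057.7 in aerobic cultures and from 14.2 to 30.2 in anaerobic cultures. Its difference was 4.33 ± 0.25 in ExP and 6.43 ± 0.25 in late SP (86.1-fold, limma adjusted p = 4.05e-11). HEM25, the mitochondrial glycine carrier that feeds HEM1, had 15.9 and 32.3 in aerobic late SP and 124.0 and 86.8 in anaerobic late SP (-2.19 ± 0.29, limma adjusted p = 1.88e-05). CYT2, which attaches heme to cytochrome c1, had 192.6 and 167.9 in aerobic late SP and 751.6 and 748.4 in anaerobic late SP (-2.06, limma adjusted p = 0.000116). In ExP CYT2 had been the higher one in air, with 347.4 and 137.1 in aerobic and 51.6 and 65.4 in anaerobic cultures (1.91, limma adjusted p = 0.000914), and the change between the phases was called (-3.97, limma adjusted p = 1.44e-05).

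**Figure D4:**
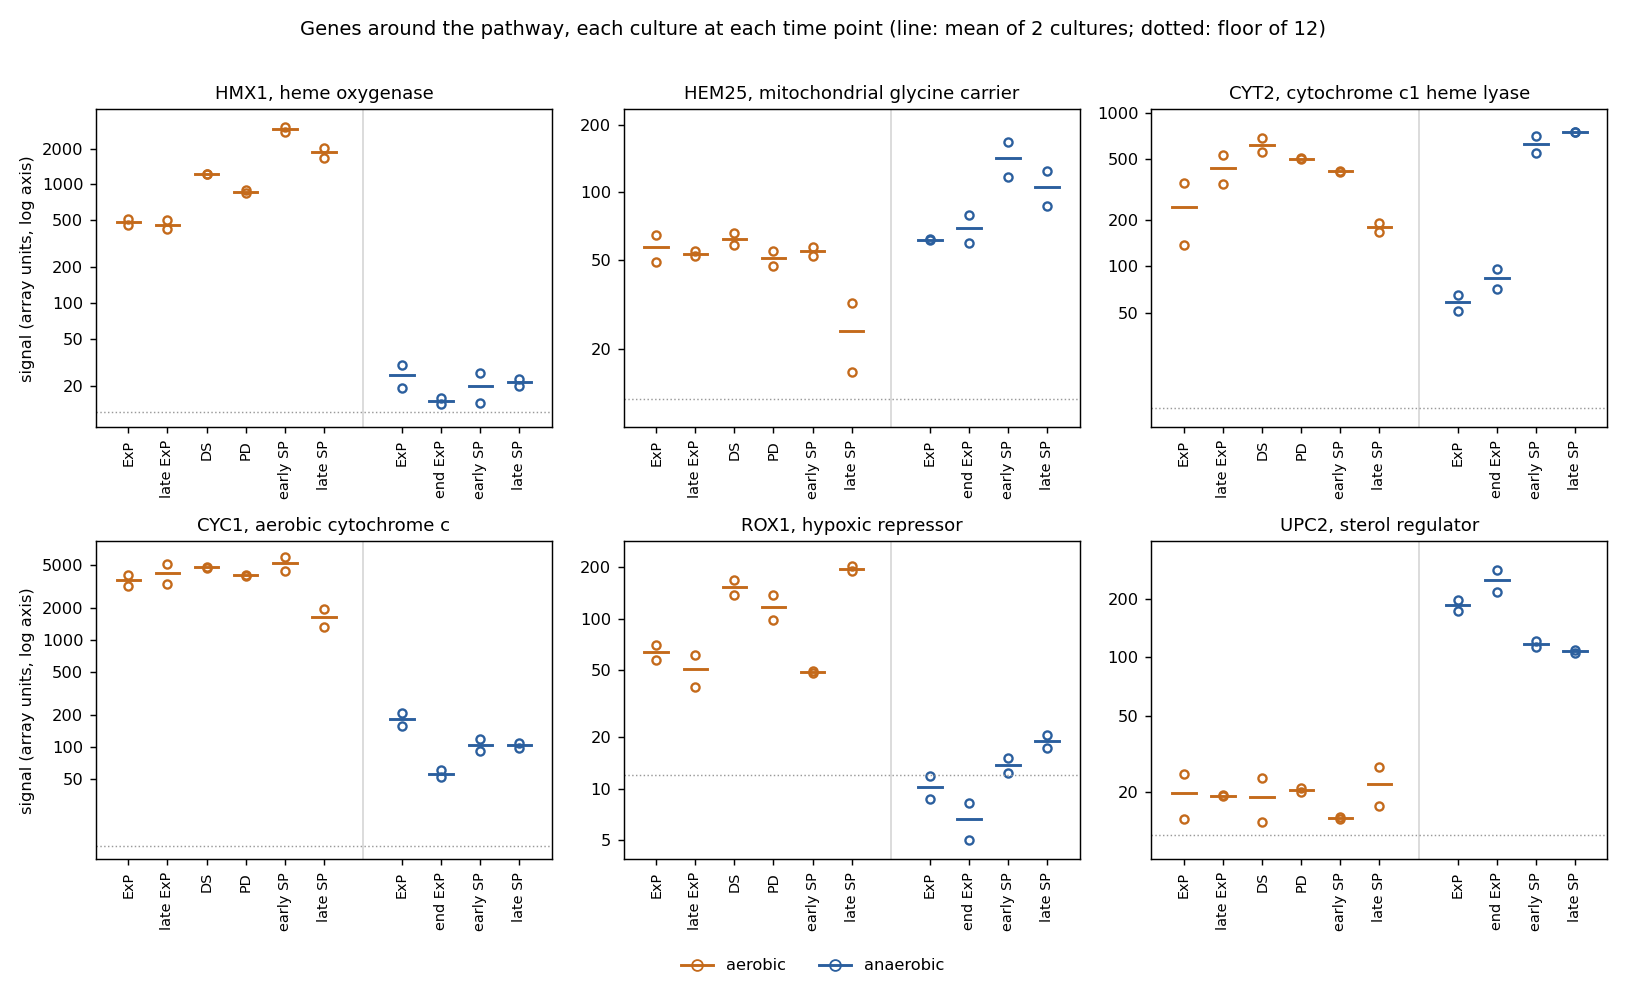
Array signal (log axis) of 3 heme-handling genes (HMX1, HEM25, CYT2), of the hemoprotein gene CYC1 and of the regulators ROX1 and UPC2, in the 6 aerobic conditions at the left and the 4 anaerobic conditions at the right of each panel. Circles are cultures, lines means of 2 cultures and the dotted line the signal of 12. HMX1, CYC1 and ROX1 are higher on every aerobic array, UPC2 on every anaerobic array, and CYT2 overlaps between atmospheres.

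Of 13 genes of hemoproteins, 4 were called higher and 0 lower in aerobic ExP, and 5 higher and 2 lower in aerobic late SP, beside 5.08% higher and 2.88% lower of all probe sets in ExP and 18.2% higher and 12.8% lower in late SP. CYC1, the main aerobic cytochrome c, had 1310.6 and 1935.4 in aerobic late SP and 109.2 and 99.0 in anaerobic late SP (3.94, limma adjusted p = 8.02e-09). CTA1, the peroxisomal catalase, had 9030.5 and 7432.2 in aerobic late SP and 25.2 and 29.8 in anaerobic late SP (8.22). CYB2, the lactate dehydrogenase flavocytochrome, had 7190.8 and 3936.9 in aerobic late SP and 327.8 and 316.5 in anaerobic late SP (4.05, limma adjusted p = 5.58e-05).

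Of 9 genes that supply glycine and succinyl-CoA, the substrates of HEM1, 2 were called higher and 0 lower in aerobic ExP (5.08% of all probe sets higher, 2.88% lower) and 4 higher and 0 lower in aerobic late SP (18.2% higher, 12.8% lower). AGX1, which makes glycine from glyoxylate, had 3169.9 and 3038.6 in aerobic late SP and 789.5 and 683.4 in anaerobic late SP (2.08, limma adjusted p = 0.00392). GLY1, threonine aldolase, had 436.1 and 471.3 in aerobic late SP and 190.0 and 139.5 in anaerobic late SP (1.48, limma adjusted p = 2.96e-06). LSC2, a subunit of succinyl-CoA ligase, had 2000.2 and 2005.6 in aerobic late SP and 747.8 and 871.7 in anaerobic late SP (1.31, limma adjusted p = 0.00325).

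Of 11 regulators of oxygen and heme responses, 2 were called higher and 1 lower in aerobic ExP, and 4 higher and 3 lower in aerobic late SP, against the same shares of all probe sets (5.08% higher and 2.88% lower in ExP, 18.2% higher and 12.8% lower in late SP). ROX1, the repressor of hypoxic genes, had 57.0 and 70.0 in aerobic ExP and 11.9 and 8.7, both raised to 12, in anaerobic ExP. In late SP it had 202.7 and 189.1 in aerobic and 20.8 and 17.4 in anaerobic cultures (3.36, limma adjusted p = 1.12e-08). UPC2, an activator of sterol and anaerobic genes, had 14.6 and 25.0 in aerobic ExP and 173.8 and 199.4 in anaerobic ExP (-3.28, limma adjusted p = 7.06e-07), and -2.32 in late SP.

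HAP3, a DNA-binding subunit of the CCAAT-binding complex, had 126.4 and 100.1 in aerobic late SP and 40.5 and 45.4 in anaerobic late SP (1.39, limma adjusted p = 0.000519). HAP4, the activating subunit of that complex, was 3.29 higher on the log2 scale in aerobic ExP (limma adjusted p = 9.78e-05) and 1.13 lower in aerobic late SP on the same scale, with 1423.4 and 1139.6 in aerobic late SP and 2562.6 and 3052.5 in anaerobic late SP (limma adjusted p = 0.0436). HAP1 had 3 probe sets, which disagreed in late SP. In ExP the brightest, counted above, was at -1.07 and not called (limma adjusted p = 0.0539), and the other two were at -1.29 and -1.83 and called lower (limma adjusted p = 0.0489 and 1.92e-05). In late SP the brightest was at -0.33 and the next at -0.38, neither called, and the third was at 2.21 and called, so no direction is given for HAP1 there.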

How the data were processed

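RNA of 4 cultures, 2 aerobic and 2 anaerobic, sampled over time was hybridised to 20 1-colour Affymetrix YG-S98 arrays. The deposited values are linear intensities (the signal), 1 per probe set and array, and were scaled by the authors to a common average. The depth of an array has no count, and the number of arrays limits the precision. Signals below 12 were set to 12, log2 was taken, and probe sets of protein-coding genes with a highest signal of at least 20 were kept (6067 of 6647, of 9335 features). The platform annotation gave 6504 features 1 gene symbol, 328 several and 2503 none. 10 condition means were fitted in limma 3.58.1 (R 4.3.3) with 10 residual degrees of freedom, and the Benjamini-Hochberg adjustment ran over all probe sets within a comparison. The fit was tested on simulated data. Figures were drawn with matplotlib 3.10.9 (Python 3.11.15).

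The 8 genes, the 4 lists and the tests were chosen with earlier results of these data known. All 8 genes were named in every comparison. Of each list the 3 genes with the greatest late SP difference were named, with HAP1, ROX1, HAP4 and UPC2 always. A gene with several probe sets was given by the brightest.

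Cultures were followed over time, so arrays of the same number within an atmosphere were taken as 1 culture. The deviations of such arrays from their condition means correlated at a median of 0.121 in aerobic cultures (-0.555 to 0.373) and 0.0936 in anaerobic cultures (-0.00273 to 0.179). p-values treat the time points as separate samples. Alternatives were other floors, filters, normalizations and call rules, culture as a block, the compared arrays alone, and leaving out each array or culture. Sequences, coordinates and promoter motifs were not analysed here.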

Additional observations from a re-analysis of the deposited data

Results flagged for a closer look

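The items here are genes whose change differed between the aerobic and the anaerobic cultures by a test of the difference itself (limma adjusted p below 0.05, whether or not the fold reached 2). With the fold threshold added, 33.3% of all probe sets were called for the change from ExP to late SP. The share was 19.2% at glucose exhaustion and 19.3% between early and late SP. Shares without the fold threshold are at least as large and are not given here, so the items are not particular to the pathway. From ExP to late SP the aerobic minus anaerobic log2 difference changed by -2.08 for HEM2, -2.94 for HEM3, -1.36 for HEM4, -0.89 for HEM12, 0.88 for HEM14 and -2.59 for HEM15. At glucose exhaustion the aerobic change exceeded the anaerobic one by 3.03 for HEM13. Between early and late SP the aerobic change minus the anaerobic change was -1.85 for HEM2, -1.18 for HEM3, -0.83 for HEM4, -0.85 for HEM12 and -1.07 for HEM15. All of these share cultures across time, and the aerobic late SP arrays enter every one but the value at glucose exhaustion.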

How the results depend on the processing

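No value of the 8 genes that had been called changed sign under any alternative. In the number of the 8 genes called, aerobic early SP minus post-diauxic (2) became 1 with a floor of 1, a floor of 30, no filter, quantile normalization, the compared arrays alone or all features, each time through HEM13. The change between early and late SP (3) became 1 with either floor, no filter or the replicate block, and 5 without the fold threshold. The diauxic shift minus late ExP (1) became 0 with quantile normalization and 4 without the fold threshold. Post-diauxic minus diauxic shift (1) became 0 and aerobic late minus early SP (3) became 1 when arrays were scaled to 6 housekeeping genes. Single calls also changed where the counts stayed within 1.5 times. Quantile normalization ended those of HEM14 in aerobic late SP minus ExP (0.89), HEM3 in aerobic late minus early SP (-0.98) and HEM15 in the change between early and late SP (-0.89), a floor of 30 (-0.93) or the compared arrays alone (-1.06) ended that of HEM13 in aerobic late SP minus ExP, and housekeeping scaling added HEM2 in anaerobic early SP minus end of ExP (1.00) and HEM12 in the change from ExP to late SP (-1.01). Aerobic minus anaerobic in ExP (2) became 0 with the compared arrays alone. Without the fold threshold aerobic late minus early SP became 5, anaerobic early SP minus end of ExP (2) became 6, aerobic late SP minus ExP (4) became 7 and anaerobic late SP minus ExP (3) became 5. The cause was not tested where the alternative does not itself state it.

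When single arrays or whole cultures were left out, the counts ranged from 0 to 2 for the diauxic shift minus late ExP, 0 to 1 for post-diauxic minus diauxic shift, 1 to 2 for aerobic early SP minus post-diauxic, 1 to 4 for aerobic late minus early SP, 2 to 5 for aerobic late SP minus ExP, 0 to 2 for the change at glucose exhaustion, 1 to 5 for the change between early and late SP, 1 to 3 for the diauxic shift minus anaerobic early SP, 0 to 1 for aerobic late ExP minus ExP, 2 to 3 for anaerobic early SP minus end of ExP and 4 to 6 for the change from ExP to late SP. The counts of 2, 4 and 7 in ExP, early SP and late SP held in each of these fits. The replicate block changed no call other than those of HEM13, HEM3 and HEM15 given above. Crossing the numbers of the aerobic late ExP cultures in the block left 0 probe sets called between ExP and late ExP, with 258 at an unadjusted p below 0.05, against 205 with the block as numbered and 198 without it. Quantile normalization shifted the median of all probe sets by -0.208 in late SP and -0.191 in early SP, and the share of calls that were higher in aerobic late SP was 44.5% with it against 58.7% without it. In early SP it was 51.8% against 64.1%, for the diauxic shift minus anaerobic early SP 56.1% against 70.7%, for the diauxic shift minus late ExP 46.9% against 60.4%, and for the change from ExP to late SP 43.2% against 57.2%. The 7 late SP differences below 0 stayed below 0 under both scalings.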
